A study of Mus musculus with 54 samples.

Results

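The nuclear genes of the mitochondrial respiratory chain were followed in mouse testis and in purified male germ cells. Members were all gene symbols of the deposited count tables that begin with Nduf, Uqcr, Sdha to Sdhd, Cox4 to Cox8 or Atp5, a choice made by name alone, and 92 of 23284 symbols were found, the same ones in the whole testis table and in the table of purified cells. By their names they comprised 7 core subunits, 29 accessory subunits and 4 assembly factors of complex I, and 4 subunits and 2 assembly factors of complex II. A further 8 fell to complex III, 20 to complex IV and 17 to ATP synthase. Against their names, Ndufa4 and Ndufa4l2 were counted in complex IV. The 17 share only the letters Atp5, and Atp5sl is counted with them although its product was not checked to be a subunit. The last member, Cox4nb, is the neighbour of Cox4i1 and encodes an endoplasmic reticulum protein, not a chain subunit, and it is given as such throughout.

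Adult C57BL/6 mice of 4 genotypes, at 3 months of age, were compared. Wild type (WT) mice were Ctcf+/+Boris+/+, and mice heterozygous for Ctcf (CTCF HET) were Ctcf+/-Boris+/+. The knockout of Boris (BORIS KO) was Ctcf+/+Boris-/-, and the compound mutant (CM) joined both as Ctcf+/-Boris-/-. CTCF is the DNA-binding protein that anchors chromatin loops, and BORIS, encoded by Ctcfl, is its germ-cell paralogue, which binds the same core motif. The alleles were not restricted to germ cells, and RNA of 4 mice was pooled for each preparation. RNA was measured in 12 libraries labelled whole testis (3 for each genotype), which per the study's methods were made from germ cell-enriched suspensions after enzymatic removal of interstitial tissue, and in 23 libraries of purified round spermatids (RS) and spermatocytes (SC), with 3 for each genotype and cell type except WT SC, which had 2. Purity was 93.7 ± 2.3% for RS and 81.5 ± 3.7% for SC. Chromatin immunoprecipitation (ChIP-seq) peak lists from whole testis covered CTCF, RNA polymerase II (Pol2) and the promoter mark H3K4me3 in WT and CM, and BORIS in WT.

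The chain passes electrons from NADH through complex I, or from succinate through complex II, to ubiquinone, then through complex III and cytochrome c to oxygen at complex IV. The proton gradient made at complexes I, III and IV drives ATP synthase. Nearly all subunits are nuclear-encoded and assembled in the mitochondrion with a few that mitochondrial DNA encodes. Germ cells carry testis forms of several subunits, among them Cox6b2, Cox7b2 and Cox8c of complex IV and the testis cytochrome c Cyct, beside the forms found in most tissues.

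Whole testis libraries held 10437683 to 42055813 counts, RS libraries 47740650 to 98545423 and SC libraries 53337530 to 88946702. Ctcf, in CPM (counts scaled to a common library size), lay between 40.9 and 45.1 in WT testis, 23.0 and 30.3 in CTCF HET testis and 24.3 and 26.8 in CM testis, and Ctcfl between 0.509 and 0.711 in WT testis, 0.165 and 0.401 in BORIS KO testis and 0.122 and 0.194 in CM testis. Ctcfl was not absent in BORIS KO RS, at 2.06 to 2.38 CPM against 2.80 to 4.91 in WT, and which of its exons these reads cover is not given. Rltpr, the gene next to Ctcf, was at 28.6 CPM or more in every CTCF HET and CM library and at 2.94 or less in every WT and BORIS KO library. The RS and SC libraries labelled CM went against the testis values of Ctcf, with 38.4 to 171 CPM in RS against 28.4 to 47.97 in WT, and 34.8 to 89.3 in SC against 33.6 to 36.0 in WT, and replicate 1 was the highest of its group in both. They are therefore called the libraries labelled CM. Ctcf was not lower than WT throughout HET SC either, at 41.7, 49.5 and 29.9 CPM against 33.6 to 36.0. In HET RS it lay between 21.8 and 33.1, which overlapped WT. The HET labels are kept. Libraries of CTCF HET SC detected 12018 to 13406 genes against 17504 to 17985 in WT cells, and those labelled CM 14145 to 16670. Spermatogonial markers summed to as much as 362.9 CPM in the RS library labelled CM replicate 2, which stood apart from the others.

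In ChIP-seq, 30 of the 92 members (32.6%, 95% Wilson interval 23.9 to 42.7) had a WT CTCF peak that reached to within 1 kb of a transcription start, beside 27.2% of all 21893 annotated genes. A WT BORIS peak lay there for 18 members (19.6%, interval 12.7 to 28.8, all genes 13.8%), and a CM CTCF peak for 16 (17.4%, interval 10.998 to 26.4, all genes 9.60%). These intervals cover counting error only, each list stands alone without replicates, and no test was made of the shares. The following windows of 150 bases, centred on WT CTCF summits, show the sites at a complex I assembly factor, a complex III core subunit, a complex I accessory subunit and a complex IV subunit; all 4 genes kept a CTCF peak in CM, and the first 3 also carried a BORIS peak. Letters are the plus strand of mm9 and capitals mark the CTCF core CCANNAGNNGGC on either strand.
Ndufaf4, chr4:24825101-24825250, 54 bases before the start: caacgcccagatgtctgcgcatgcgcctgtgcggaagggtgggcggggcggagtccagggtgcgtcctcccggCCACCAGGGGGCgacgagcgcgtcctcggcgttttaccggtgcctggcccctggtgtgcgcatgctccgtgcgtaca
Uqcrc1, chr9:108838573-108838722, 13 bases before the start: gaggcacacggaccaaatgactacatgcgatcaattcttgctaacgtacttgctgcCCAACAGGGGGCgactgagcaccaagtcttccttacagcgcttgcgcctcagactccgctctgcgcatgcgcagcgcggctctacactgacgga
Ndufa6, chr15:82184790-82184939, 144 bases before the start: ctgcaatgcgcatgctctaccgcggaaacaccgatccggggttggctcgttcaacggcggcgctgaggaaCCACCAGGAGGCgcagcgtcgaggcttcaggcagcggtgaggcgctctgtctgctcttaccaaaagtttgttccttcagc
Cox6a1, chr5:115797748-115797897, in an intron 1100 bases after the start, core on the minus strand: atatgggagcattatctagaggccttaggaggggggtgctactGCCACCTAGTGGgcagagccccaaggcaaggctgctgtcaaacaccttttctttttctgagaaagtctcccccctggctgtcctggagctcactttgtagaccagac

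Peak heights at these summits were 3022 for Ndufaf4, 2778 for Uqcrc1, 3073 for Ndufa6 and 2360 for Cox6a1 in WT CTCF, in the authors' unit. In CM CTCF they were 385 for Ndufaf4, 444 for Uqcrc1, 295 for Ndufa6 and 358 for Cox6a1. The normalisation of heights is not given in the sources used here, so the lists are not compared by height. The core was found in 7 of the 33 WT CTCF windows at members (21.2%, interval 10.7 to 37.8), beside 38.5% of all 34625 WT CTCF windows, and in 6 of 18 BORIS windows (33.3%, interval 16.3 to 56.3), beside 30.5% of all. In CM CTCF it was found in 7 of 16 (43.8%, interval 23.1 to 66.8), beside 51.1%.

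Of the 30 members with a WT CTCF peak at the start, 14 (46.7%, interval 30.2 to 63.9) had none in the CM list, beside 66.0% of all genes with a WT peak. The CM list is shorter as a whole, with 21525 peaks. These 14 members were Atp5b, Atp5c1, Atp5d, Ndufa12, Ndufa2, Ndufa3, Ndufa4l2, Ndufb7, Ndufb8, Ndufs1, Ndufs8, Ndufv3, Sdhc and Uqcrh. The tallest of their WT peaks, at Ndufb7, reached 2720, within the range of the sites printed above. Pol2 peaks lay at 72 members in WT (78.3%) and 82 in CM (89.1%), beside 40.2% and 47.4% of all genes. H3K4me3 peaks lay at 84 in WT (91.3%) and 88 in CM (95.7%), beside 52.6% and 57.4%, so the CM lists covered more starts among all genes too. The 5 members with H3K4me3 in the CM list but not in the WT list were Cox7b, Ndufa1, Ndufa4, Ndufa4l2 and Ndufv3, and the 11 with Pol2 only in the CM list included Cox6a1, Cox6b1, Ndufs6 and Ndufs7. Conversely, Ndufa1 alone had Pol2 in WT only and Cox6a2 alone had H3K4me3 in WT only.

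**Figure D1:**
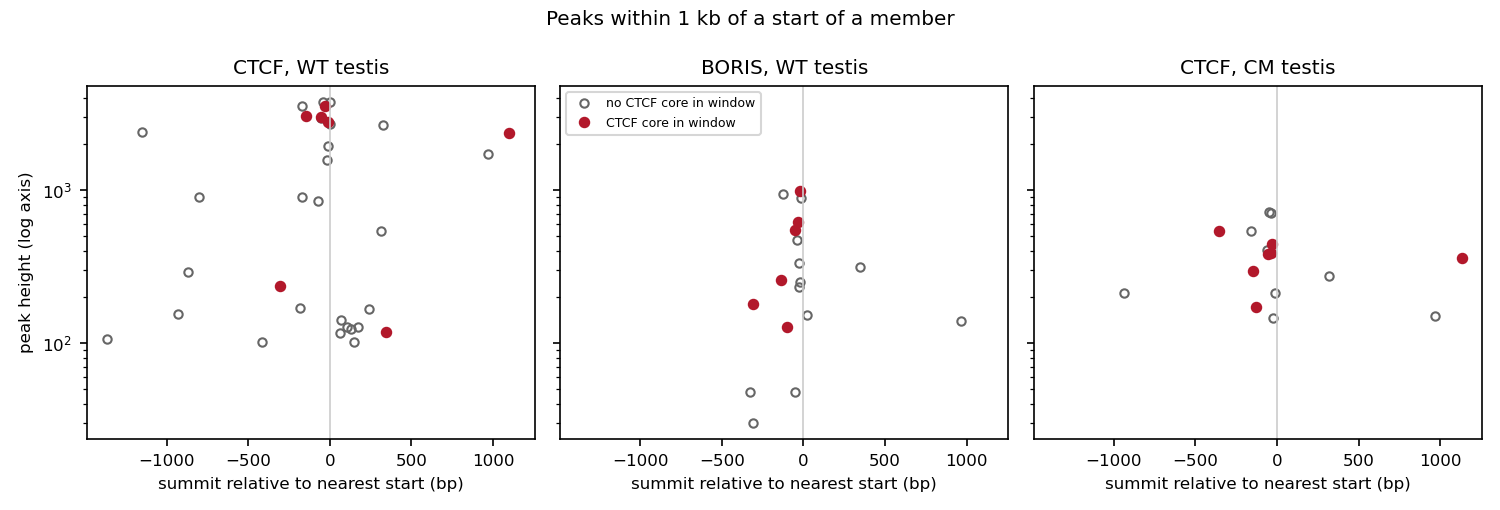
Peaks of CTCF in WT, BORIS in WT and CTCF in CM testis that lie within 1 kb of a member's start, by the distance of the summit from the nearest start (bases, horizontal) and the deposited peak height (log axis, vertical). Filled points have the CTCF core in the window of 150 bases, 7 of 33 in WT CTCF, 6 of 18 in BORIS and 7 of 16 in CM CTCF, and heights are not comparable between panels.

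Promoter letters were compared with those of all genes, over 250 bases before to 50 after the start. The CTCF core occurred in 8 members (8.70%, all genes 2.54%), the NRF1 motif GCGCANGCGC in 15 (16.3%, all genes 6.15%), the ETS motif CCGGAAG in 20 (21.7%, all genes 11.1%) and the YY1 motif ANATGGCG in 12 (13.0%, all genes 4.39%), each searched on both strands. NRF1 and the ETS factor GABP are textbook regulators of respiratory chain genes. A match of letters is no evidence of binding. The promoters of 3 members that rose in CM testis (below) are given as examples from the gene's strand, with NRF1 and ETS letters in capitals. Motifs of the other members that rose are not given here, and a link between motif and rise was not tested. Atp5g3 encodes the membrane c subunit of ATP synthase, and Cox6a1 and Cox8a the widely expressed forms of complex IV subunits.
Atp5g3, chr2:73749334-73749633, minus strand, NRF1: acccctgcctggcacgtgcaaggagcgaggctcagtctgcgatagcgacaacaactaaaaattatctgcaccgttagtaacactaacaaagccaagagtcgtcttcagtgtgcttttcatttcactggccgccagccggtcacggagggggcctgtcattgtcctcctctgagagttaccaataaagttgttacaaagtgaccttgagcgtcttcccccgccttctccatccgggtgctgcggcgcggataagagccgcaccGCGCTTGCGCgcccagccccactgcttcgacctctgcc
Cox6a1, chr5:115798941-115799240, minus strand, NRF1 and ETS: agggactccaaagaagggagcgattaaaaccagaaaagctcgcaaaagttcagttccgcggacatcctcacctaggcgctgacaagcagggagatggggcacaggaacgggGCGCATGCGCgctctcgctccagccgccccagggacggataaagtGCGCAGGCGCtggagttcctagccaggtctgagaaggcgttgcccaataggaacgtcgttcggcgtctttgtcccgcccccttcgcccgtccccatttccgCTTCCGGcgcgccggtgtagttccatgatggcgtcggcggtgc
Cox8a, chr19:7292057-7292356, minus strand, ETS: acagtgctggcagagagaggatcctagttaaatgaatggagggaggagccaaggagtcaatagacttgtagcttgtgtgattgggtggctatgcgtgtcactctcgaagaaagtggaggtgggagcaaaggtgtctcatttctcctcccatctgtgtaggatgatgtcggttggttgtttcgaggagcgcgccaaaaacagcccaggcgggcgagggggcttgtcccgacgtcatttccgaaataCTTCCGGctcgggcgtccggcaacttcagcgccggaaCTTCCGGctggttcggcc

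Levels in WT were compared between genes per kb of merged exon (CPM per kb, mean ± SD). In complex IV, Cox4i1, the main form of subunit IV, was highest in whole testis at 313 ± 32 (n = 3), whereas Cox8c was highest in RS at 526 ± 149 (n = 3) and in SC at 2305 ± 372 (n = 2). Uqcrc1, a core protein of complex III, led that complex in whole testis at 229 ± 66, and Uqcrb, a small complex III subunit, led it in RS at 292 ± 52 and in SC at 277 ± 40. Among complex I assembly factors Ndufaf3 was highest in whole testis at 182 ± 55, and Ndufaf2 was highest in RS at 310 ± 49 and in SC at 194 ± 9.9. Ndufaf4, whose promoter carries the CTCF site printed first, was the lowest of the 4 in each preparation. Not divided by length, Ndufaf3 exceeded Ndufaf2 in SC, at 166 against 132 CPM, and the core protein gene Uqcrc2 exceeded Uqcrb, at 248 against 242.
The catalytic β subunit gene Atp5b led ATP synthase in whole testis at 142 ± 21 and in RS at 60.2 ± 14. Without WT replicate 1 the γ subunit gene Atp5c1 was first in RS, at 57.99 against 52.0. In SC the α subunit gene Atp5a1 led, at 110 ± 2.7. These last orders depend on the division by length. In undivided CPM, Atp5b exceeded Atp5a1 in SC, at 395 against 345. Atp5b also exceeded Atp5c1 in RS replicates 2 and 3, at 218 and 223 against 109 and 112. Sdha, the flavoprotein of succinate dehydrogenase, was the highest gene of complex II in each preparation, at 42.1 ± 1.0 in whole testis, 36.8 ± 5.7 in RS and 60.0 ± 0.43 in SC. Sdhc, one of its membrane anchors, was the lowest in each. Of the complex I core subunits, Ndufv2 was highest in RS at 126 ± 8.1 and in SC at 116 ± 4.7, and Ndufs7 was lowest in each preparation. Among the accessory subunits the order changed between preparations. Ndufa2 was highest in whole testis at 116 ± 57, although without WT replicate 1 Ndufa13 was first, at 97.8 against 85.7. Ndufa6 was highest in RS at 174 ± 6.7 and Ndufs6 in SC at 220 ± 16. Not divided by length, Ndufb8 exceeded Ndufa2 in whole testis, at 212 against 61.3 CPM, and Ndufa12 exceeded Ndufa6 in RS, at 119 against 97.3. Ndufs5 was at 0 in all WT cells and at 0.034 ± 0.060 in whole testis. Reads of genes that have close copies or pseudogenes cannot be placed with certainty, and how such reads were counted is not given, so a near-zero value of a gene like Ndufs5 is uncertain, as are the levels of Atp5l and Cox6a1. The 2 preparations also differed in protocol (rRNA-depleted testis, poly(A) cells) and were not tested against each other.

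In complex IV the testis forms Cox8c, Cox7b2 and Cox6b2 exceeded their common forms in WT. Per kb, the log2 ratio of Cox8a to Cox8c lay between −4.18 and −2.26 in whole testis, between −9.08 and −7.30 in RS and between −10.2 and −9.97 in SC, so Cox8c exceeded Cox8a in every WT library. The ratio of Cox7b to Cox7b2 lay between −6.38 and −4.12 in testis and from −12.6 to −9.85 in RS. Cox7b had 34, 3 and 31 counts in WT RS and 0 and 3 in WT SC, so the size of its ratios in cells is uncertain. The ratio of Cox6b1 to Cox6b2 lay between −5.44 and −4.87 in testis and from −4.24 to −4.06 in SC. Ndufa4, a subunit first assigned to complex I and now to complex IV, was below its paralogue Ndufa4l2, with log2 ratios from −2.06 to −1.13 in testis and from −4.55 to −3.42 in RS. For other pairs the common form prevailed, with Cox4i1 above Cox4i2 by at least 9.23, Cox6a1 above Cox6a2 by at least 7.24 and Cox7a2 above Cox7a1 by at least 6.83 on the log2 scale in every WT library. Cox4i2, Cox6a2 and Cox7a1 had at most 8 counts in any WT library, so these ratios depend on the offset of 0.5 counts added to each.
The c subunit of ATP synthase is made from 3 genes. Atp5g3 exceeded Atp5g2 in SC, where log2 ratios of Atp5g2 to Atp5g3 were from −4.09 to −3.47, but not in whole testis, where they were from 0.32 to 0.45, an order that turned to −1.36 when levels were not divided by length.
In CM testis the ratio of Ndufa4 to Ndufa4l2 lay between 0.24 and 1.35, above every WT library, as were those of BORIS KO at −0.98 to −0.70. The ratio of Cox8a to Cox8c lay between −2.43 and 0.35 and overlapped that of WT, and that of Cox6b1 to Cox6b2 lay between −4.13 and −2.33, above every WT library, as in BORIS KO at −4.75 to −3.76. CTCF HET overlapped WT in each of these ratios. The common forms Ndufa4, Cox8a and Cox6b1 were called higher in CM (below). Of their partners, Ndufa4l2 and Cox6b2 were lower in CM than in WT in each of the 3 same-numbered pairs. With the replicate number as a block, Ndufa4l2 was called lower (−0.69 ± 0.26, edgeR adjusted p = 0.04434), whereas Cox6b2 (−0.26 ± 0.22) and Cox8c (−0.37 ± 0.25) did not pass.

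**Figure D2:**
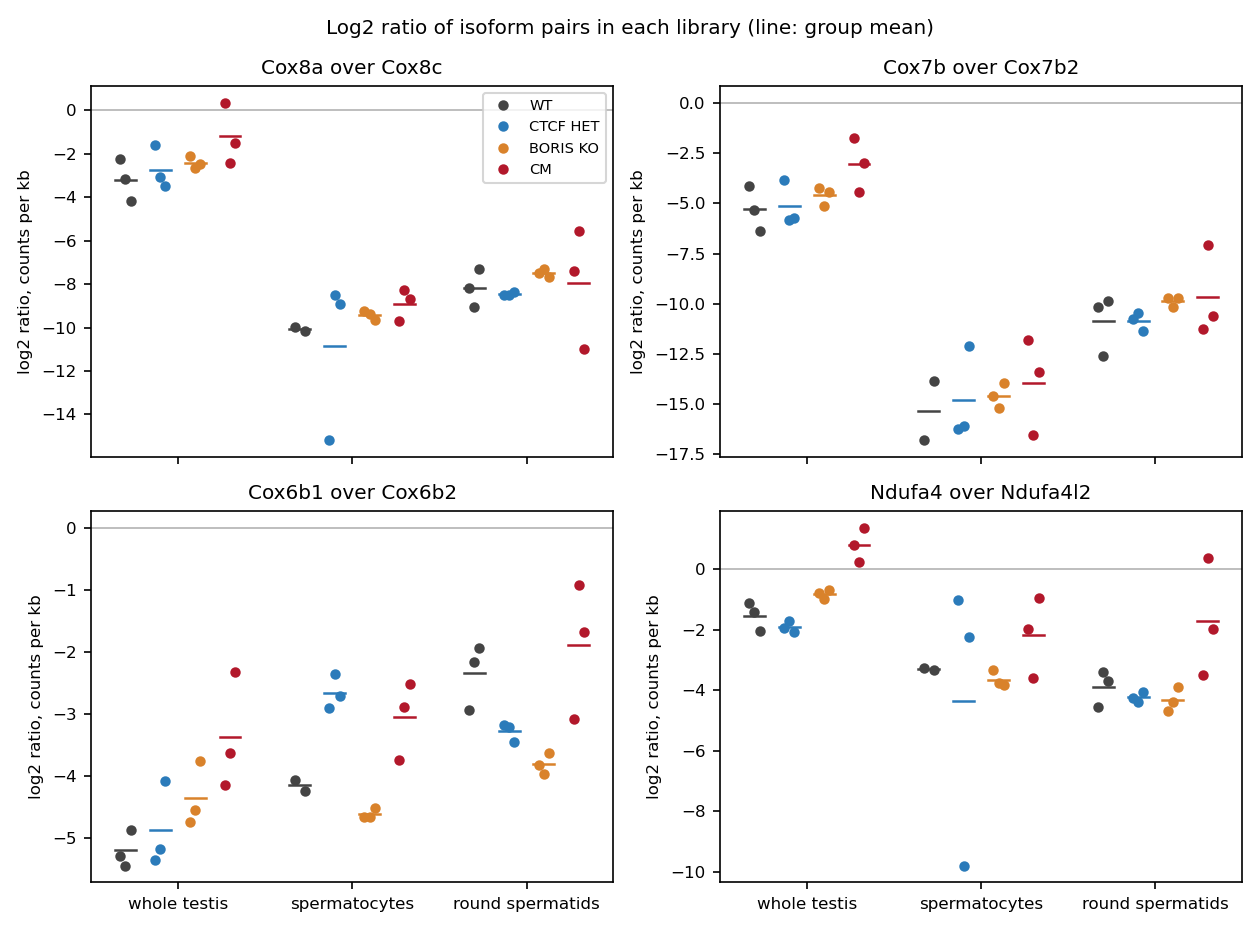
Log2 ratio of the per-kb levels of 4 isoform pairs (vertical axis) in each library (points), by preparation and genotype (colours), with a line at each group mean. In CM testis the Ndufa4 to Ndufa4l2 ratio sits between 0.24 and 1.35, against −2.06 to −1.13 in WT and −0.98 to −0.70 in BORIS KO.

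Whole testis was compared first between each single mutant and WT. In each comparison, here and below, 4 to 8 of the 92 members fell under the filter on low counts and were not tested. In CTCF HET no member of the 87 tested passed edgeR's adjusted p threshold of 0.05, none had an unadjusted p under 0.05 and DESeq2 called 0, where 0.00621% of all genes were called. In BORIS KO testis 0 of 87 members passed in edgeR, 13 had an unadjusted p under 0.05 and DESeq2 called 1, where 0.0551% of all genes were called. The replicate number was taken to pair the whole testis libraries, a pairing that the labels do not state. With it as a block, 2 members were called in BORIS KO, 1 higher and 1 lower, beside 3.02% and 3.57% of all genes.

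In CM testis 10 of 87 tested members were higher than in WT and 0 were lower (11.5% of members higher, beside 16.4% of all genes higher and 8.8% lower). The share called higher was below that of all genes, so a rise is not particular to the members. The median log2 fold change of the 87 was 0.11, beside 0.00 for all genes, and 77 members did not pass. The members that rose were Cox8a, Cox7b, Cox6a1, Cox6b1 and Ndufa4 of complex IV, the complex I accessory genes Ndufb11, Ndufa1 and Ndufc2, Atp5g3 of ATP synthase, and Cox4nb. In this fit, without the replicate block, no core subunit of complex I and no gene of complex II or III passed.

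Cox8a lay at 7.10, 8.48 and 7.20 CPM in WT, at 7.19, 10.1 and 11.6 in CTCF HET, at 9.16, 13.0 and 15.1 in BORIS KO, whereas the CM libraries reached 21.9, 16.3 and 36.7. Every CM library was above every other library, and Cox8a rose by 1.69 ± 0.33 (log2 ± SE, edgeR adjusted p = 0.01649). Its testis form Cox8c lay at 29.7, 66.2 and 114 CPM in WT while its CM values, from 15 to 91.7, overlapped them (−0.21 ± 0.65, edgeR adjusted p = 0.8232).
Cox7b, an X-linked complex IV subunit, lay at 2.91, 2.78 and 1.78 CPM in WT, from 1.77 to 2.52 in CTCF HET and from 2.73 to 4.02 in BORIS KO, whereas the CM libraries held 7.16, 6.16 and 12.5 (1.75 ± 0.37, edgeR adjusted p = 0.0179). Its autosomal testis form Cox7b2 lay at 22.7, 49.95 and 67.9 in WT and at 10.8, 60.1 and 44.2 in CM (−0.30 ± 0.59). The common form was thus higher in every CM library, whereas values of the testis form overlapped.
Cox6b1 lay at 3.11, 2.52 and 4.80 CPM in WT and at 6.34, 8.17 and 20.4 in CM (1.72 ± 0.48, edgeR adjusted p = 0.03357), and Cox6b2 at 132, 121 and 154 in WT and at 122, 110 and 112 in CM (−0.26 ± 0.21). Cox6a1, at whose intron the CTCF site printed above was kept in CM, lay at 44.9, 81.4 and 78.8 CPM in WT, from 72.5 to 145 in BORIS KO, with 116, 201 and 406 in CM (1.80 ± 0.45, edgeR adjusted p = 0.02462). Groups of CM and WT did not overlap for Cox6b1 or Cox6a1, and CM replicate 3 was the highest in both. Cox6b1 lay from 3.18 to 9.55 CPM in CTCF HET and from 4.89 to 7.10 in BORIS KO, and both overlapped CM. For Cox6a1, BORIS KO overlapped CM.
Ndufa4 lay at 3.39, 3.18 and 4.09 CPM in WT and at 6.66, 9.57 and 22.3 in CM (1.83 ± 0.45, edgeR adjusted p = 0.02395), against −0.70 ± 0.42 for Ndufa4l2, whose 14.5, 16.8 and 33.6 CPM in WT overlapped 7.45, 15.9 and 17.1 in CM. CM and WT did not overlap for Ndufa4, whereas they did for Ndufa4l2. In BORIS KO, Ndufa4 lay from 4.18 to 8.10 CPM and overlapped CM.
Ndufb11, an X-linked accessory subunit of complex I, lay at 4.33, 4.84 and 5.69 CPM in WT, from 3.35 to 6.17 in CTCF HET, from 5.55 to 8.37 in BORIS KO, whereas the CM libraries held 13.2, 13.1 and 27.3 (1.83 ± 0.36, edgeR adjusted p = 0.01649). Atp5g3 lay at 21.0, 18.3 and 18.7 CPM in WT, from 24.2 to 30.6 in BORIS KO, with 51.8, 34.2 and 67.6 in CM (1.39 ± 0.28, edgeR adjusted p = 0.01661). In both genes all CM libraries were above all libraries of the other 3 genotypes.
Ndufa1, also X-linked, rose by 1.47 ± 0.37 (edgeR adjusted p = 0.02462), from 3.51, 3.78 and 4.09 CPM to 8.88, 6.65 and 16.5. Ndufc2 rose by 1.18 ± 0.38 (edgeR adjusted p = 0.04897), from 5.40, 4.90 and 8.001 CPM to 9.29, 11.7 and 21.1. Cox4nb rose by 1.08 ± 0.24 (edgeR adjusted p = 0.01938), from 10.9, 11.1 and 11.9 CPM to 23.4, 20.2 and 29.0. In BORIS KO, Ndufa1 lay from 4.26 to 8.20 CPM and Ndufc2 from 7.58 to 13.2, and both overlapped CM. Cox4nb, from 14.4 to 19.9 in BORIS KO, did not. In CTCF HET only Ndufc2 of these genes overlapped CM, from 5.07 to 11.4. Ndufa5, an accessory subunit of complex I, was just outside the threshold at −0.85 ± 0.27 (edgeR adjusted p = 0.05073).

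**Figure D3:**
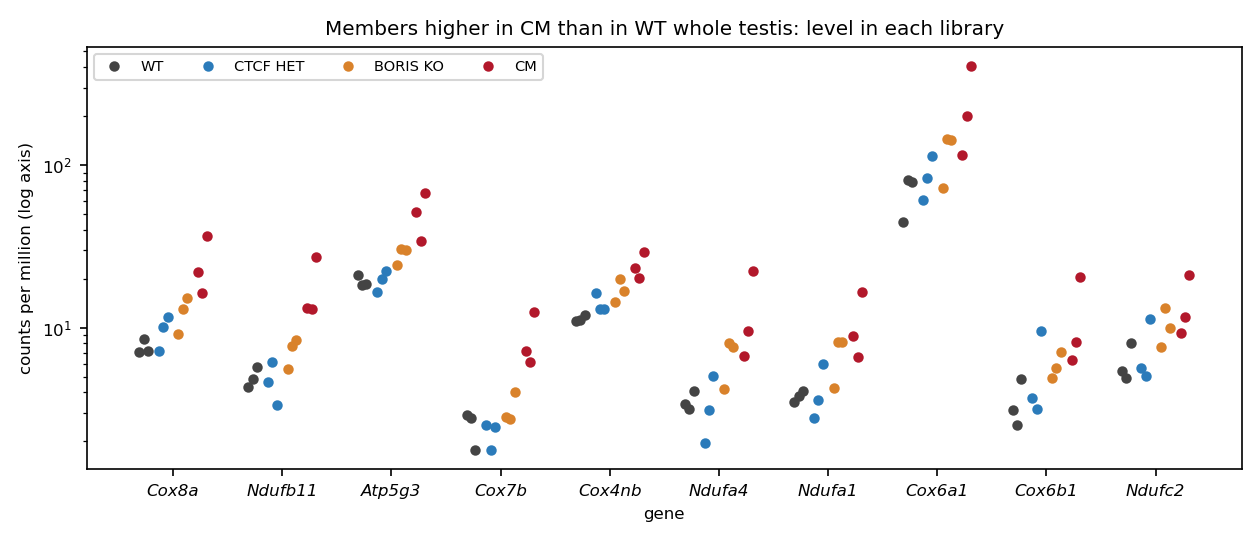
CPM (log axis) of the 10 members called in CM testis, in the 12 whole testis libraries (points), coloured by genotype. In each gene the CM points lie above the WT points, for Cox8a from 16.3 to 36.7 against 7.10 to 8.48.

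All 3 X-linked members were among the 10, and 207 of the 626 X-linked genes tested (33.1%) were higher in CM testis. By position of CTCF, 1 of the 16 members with a CTCF peak in both genotypes rose (Cox6a1), none of the 14 with a peak in WT only, and 9 of 57 tested members with neither. Their median log2 fold changes were 0.039, −0.064 and 0.15, respectively. With the replicate block, calls numbered 2 higher and 2 lower of 16, 2 and 2 of 14, and 11 and 2 of 57. Shares of all genes by class of peak are not given here, and a link between the class and the calls was not tested.
Markers of other cells moved with these values. Leydig cell markers summed to 1801 to 3585 CPM in CM testis against 361.8 to 592.6 in WT (5 of 7 genes higher), Sertoli markers to 650.7 to 1337 against 265.7 to 410.3 (5 of 7) and macrophage markers to 171.8 to 612.3 against 49.79 to 131.1 (6 of 7). Elongating spermatid markers summed to 5297 to 14770 against 20000 to 29370 (4 of 7 lower) and round spermatid markers to 932 to 1710 against 2702 to 2760 (3 of 8 lower). The part of the cell makeup in the values of the called members was not tested. In these mixed suspensions fewer cells of a type cannot be told apart from less RNA per cell. Per the study's methods interstitial tissue was digested during preparation, and the part of this step in the marker values was not tested.
The CM calls rested on few libraries. No member passed without WT replicate 2, WT replicate 3 or CM replicate 3, 4 passed without WT replicate 1 and 17 without CM replicate 1. Shares of all genes called with a library left out are not given, here or below. These counts are therefore not read as a result about the members. With the replicate block 21 members were called, 15 higher and 6 lower (beside 23.8% and 19.2% of all genes), and all 10 were among them. Those added as higher were Uqcr11 of complex III (0.98 ± 0.28), the complex I core subunit Ndufs8 (0.69 ± 0.24), the accessory subunits Ndufa2 and Ndufb9, and the assembly factor Ndufaf4 (0.96 ± 0.36). Those added as lower were the accessory subunits Ndufa12 (−0.94 ± 0.26) and Ndufa5 (−0.83 ± 0.26), the core subunit Ndufv2 (−0.73 ± 0.27), Ndufa4l2, the assembly factor Ndufaf3 and Atp5s. No gene of complex II passed with the block either.

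Against CTCF HET testis, 5 of 88 members were higher in CM and 0 lower (10.6% of all genes were higher and 4.88% lower), namely Cox7b (1.91 ± 0.37, edgeR adjusted p = 0.02258), Ndufb11 (1.89 ± 0.39, edgeR adjusted p = 0.02417), Atp5g3, Cox8a and Ndufa4. With the replicate block 21 were called, 14 higher and 7 lower, beside 23.4% and 19.6% of all genes. No member passed without CTCF HET replicate 2, CTCF HET replicate 3 or CM replicate 3, while 1 passed without CTCF HET replicate 1, 8 without CM replicate 2 and 10 without CM replicate 1.
Against BORIS KO testis 0 of 88 members passed in edgeR, 8 had an unadjusted p under 0.05 and DESeq2 called 2, where 0.006% of all genes were called. Cox7b, at 1.39 ± 0.35, was higher in every CM library (edgeR adjusted p = 0.144). With the replicate block 4 members were called higher and 0 lower, beside 3.99% and 3.36% of all genes, and 2 were called without CM replicate 2.
The CM effect was also tested against the sum of the CTCF HET and BORIS KO effects. No member of 88 passed in edgeR, 6 had an unadjusted p under 0.05 and DESeq2 called 0, where 0% of all 17185 genes were called.

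Other genes of oxidative metabolism, listed by name, were read from the CM testis fit. Of the electron carriers and partners 5 of 8 were higher and 1 lower, among them cytochrome c (Cycs, 1.37 ± 0.26), the electron transfer flavoprotein Etfa (1.63 ± 0.37) and its dehydrogenase Etfdh (1.14 ± 0.27), with glycerol-3-phosphate dehydrogenase Gpd2 lower (−1.23 ± 0.29). Of the ADP/ATP and phosphate carriers 2 of 4 were higher, Slc25a5 (1.67 ± 0.34) and Slc25a4 (1.49 ± 0.34). Assembly factors outside the naming rule counted 1 higher of 21 (Tmem126b), transcriptional regulators 1 of 12 (Pprc1) and tricarboxylic acid cycle enzymes 2 of 13 (Mdh2 and Suclg2), with none lower.

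In germ cells BORIS KO had the most called members of the 3 mutant genotypes. It also had the largest share of all genes called in both cell types, so this rank is not particular to the members. In RS, 47 of 88 tested members were higher than in WT and 14 lower (53.4% and 15.9% of members, beside 26.8% and 29% of all genes). In SC, 49 of 85 were higher and 14 lower (57.6% and 16.5%, beside 29.1% and 28.1% of all genes). Median log2 fold changes were 0.39 in RS (−0.01 for all genes) and 0.29 in SC (0.02 for all genes). Of the 85 members tested in both cell types, 41 were called higher in both (48.2%, beside 23.1% of all genes tested in both), 11 lower in both (12.9%, beside 21.4%) and 0 in opposite directions (beside 0.539%). The TMM-scaled levels of the members summed to 5404 to 5928 CPM in KO RS against 4372 to 4803 in WT, and to 8242 to 8779 in KO SC against 7311 to 7685. As shares of all counts, without that scaling, these were 0.640 to 0.663% against 0.419 to 0.442% in RS, and 0.856 to 0.906% against 0.647 to 0.706% in SC.
Among members grouped by name as subunits, higher calls outnumbered lower ones in each complex. In RS, ATP synthase had 11 higher and 2 lower of 17, complex IV 10 and 2 of 17, complex I accessory subunits 15 and 4 of 28, the complex I core 4 and 2 of 7, complex III 4 and 1 of 8 and complex II 2 and 0 of 4. In SC these were 10 and 3 of 17, 11 and 2 of 15, 15 and 3 of 27, 4 and 1 of 7, 5 and 2 of 8, and 3 and 0 of 4. The complex I assembly factors, by contrast, counted 1 higher and 2 lower of 4 in each cell type, and those of complex II 0 higher and 1 lower of 2.

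Uqcrb went against its complex. It lay at 47.4, 44.1 and 48.4 CPM in KO RS against 203, 274 and 289 in WT, and fell by 2.50 ± 0.15 on the log2 scale (edgeR adjusted p = 5.002e-06). In SC it lay at 92.3, 101 and 104 CPM against 267 and 218 in WT (−1.29 ± 0.08). Its groups did not overlap in either cell type. In whole testis its log2 fold change was 0.08 ± 0.36.
Ndufaf2, an assembly factor, also fell, from 176, 212 and 243 CPM to 76.5, 70.0 and 84.5 in RS (−1.50 ± 0.14) and by 0.67 ± 0.06 in SC. The assembly factor Ndufaf3 ran the other way, at 157, 157 and 123 CPM in KO RS against 58.9, 53.0 and 51.9 in WT (1.37 ± 0.12). The testis form Cox6b2 lay at 126, 138 and 117 CPM in KO RS against 49.6, 38.8 and 37.0 (1.56 ± 0.13, edgeR adjusted p = 2.001e-05). In SC, the accessory subunit Ndufb8 lay at 102, 112 and 102 CPM against 49.2 and 57.1 (0.99 ± 0.08), and Ndufa7 at 54.5, 53.1 and 47.7 against 24.9 and 28.6 (0.95 ± 0.08). None of these groups overlapped.
Base composition moved with these values. Across genes the log2 fold change correlated with the GC content of the exons, with r = 0.516 over the members and r = 0.681 over all genes in KO RS, and r = 0.506 and 0.559 in KO SC; the genes share libraries and are no replicates. Members at or above their median GC of 50.5% counted 30 higher and 2 lower of 42 in RS, and those below it 17 higher and 12 lower of 46. With a GC term fitted in each library, 37 members were higher and 14 lower in RS, and 39 of the 61 calls were shared. In SC 42 were higher and 12 lower, and 43 of the 63 calls were shared. Shares of all genes under this term, and in either GC group, are not given here, so these counts are not read against all genes. Under this term Uqcrb was at −1.63 in RS and −0.78 in SC, Cox6b2 at 0.91 and Ndufaf3 at 0.30 in RS, the last no longer called. The part of base composition in the rest was not tested.

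**Figure D4:**
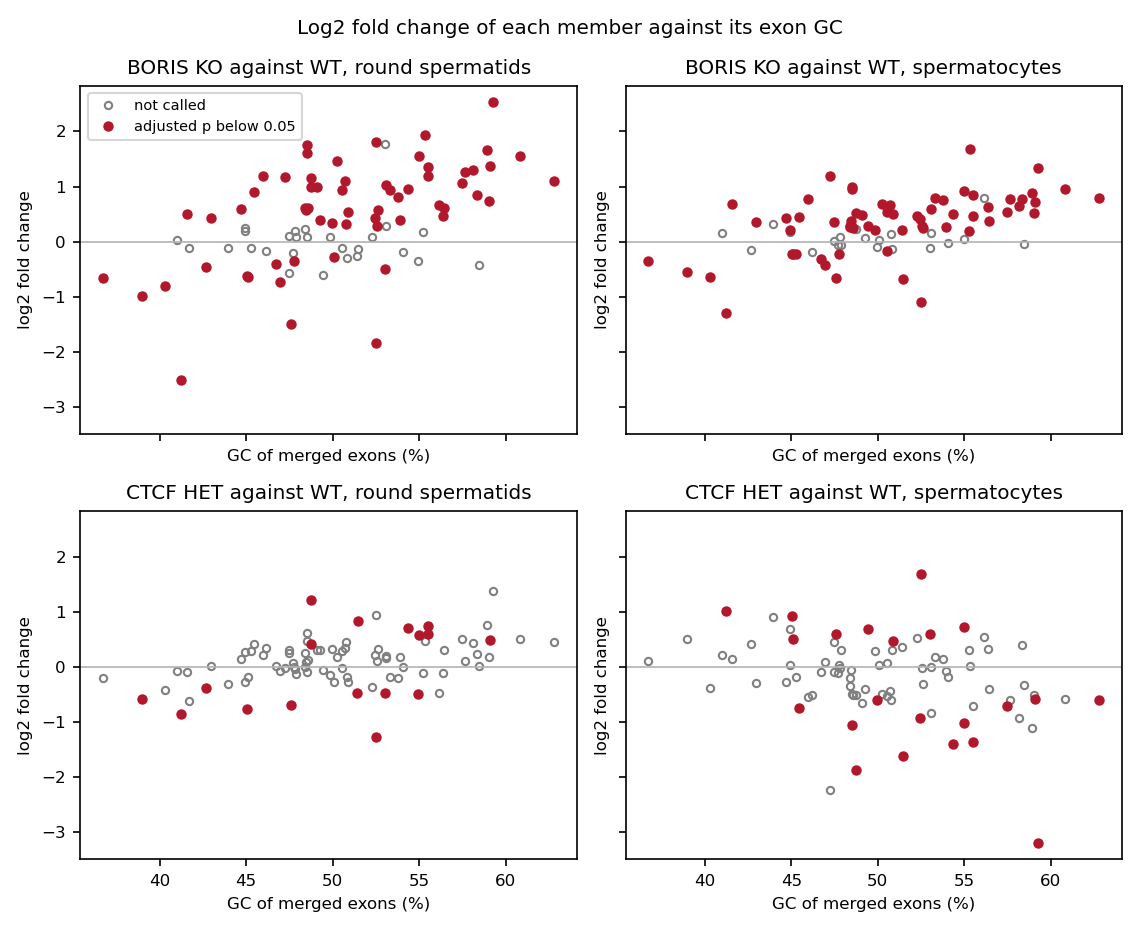
Log2 fold change of each member (points, filled where called) against the GC content of its exons (percent), for BORIS KO (upper row) and CTCF HET (lower row) against WT. In BORIS KO the points rise with GC in both cell types (r = 0.516 in round spermatids and 0.506 in spermatocytes) and Uqcrb lies lowest, and in CTCF HET they rise in round spermatids (0.402) and fall in spermatocytes (−0.305).

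In CTCF HET, calls were made in both cell types. In RS 8 of 87 members were higher than in WT and 9 lower (beside 9.51% and 12.8% of all genes), and in SC 9 of 84 were higher and 13 lower (beside 6.77% and 8.76%). Of the 84 members tested in both, 12 were called in both, all in opposite directions (14.3%, beside 7.9% of all genes), and none was higher in both or lower in both, beside 0.106% and 0.0759%. Opposite calls were general, making up 97.7% of the 1064 genes called in both. The same WT libraries served as controls for CTCF HET and BORIS KO. Ctcf itself was at −0.44 ± 0.22 in HET RS and 0.34 ± 0.22 in HET SC, and was called in neither.
Cox8c lay at 543, 745 and 489 CPM in HET RS against 332, 208 and 211 in WT (1.22 ± 0.21, edgeR adjusted p = 0.00648). In SC it lay at 280, 257 and 298 against 972 and 1222 (−1.86 ± 0.12, edgeR adjusted p = 0.002241). It was thus higher in all HET RS libraries and lower in all HET SC libraries.
Ndufa6, at whose promoter CTCF and BORIS peaks lay, was at 71.8, 69.4 and 73.3 CPM in HET RS against 101, 93.9 and 96.6 (−0.47 ± 0.09), and at 117, 119 and 116 in HET SC against 88.7 and 80.8 (0.59 ± 0.10). Ndufs6, an accessory subunit, lay at 58.6, 56.0 and 63.9 CPM in HET SC against 187 and 207 (−1.61 ± 0.11), and Ndufc1 at 81.0, 83.6 and 94.9 against 54.5 and 45.0 (0.92 ± 0.13). In RS, Ndufaf3 was at 0.49 ± 0.11 and Ndufaf2 at −0.68 ± 0.14, both called.
The log2 fold change correlated with GC content with r = 0.402 over the members in HET RS and −0.305 in HET SC, beside 0.47 and −0.286 over all genes, and with a GC term Ndufaf3 was at 0.01 and was not called. Elongating spermatid markers summed to 971.6 to 1078 CPM in HET RS against 1459 to 1597 in WT. The number of calls in RS ran from 1 to 43 when a library was left out, with 1 without WT replicate 2 or WT replicate 3, 4 without HET replicate 1 or 2, 11 without HET replicate 3 and 43 without WT replicate 1. In SC it was 0 without HET replicate 2 and 14 without HET replicate 1 or WT replicate 2. Leaving out a WT SC library leaves 1 in that group, which is then assumed to vary as the HET libraries do.

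Among the libraries labelled CM, RS showed no called member of 87 in edgeR, where 0.00654% of all genes were called; 6 members had an unadjusted p under 0.05 and DESeq2 called 3. In SC 1 of 86 was higher and 0 lower, beside 0.38% and 0.224% of all genes. The called member was Ndufa1, an X-linked accessory subunit of complex I, at 15.3, 15.9 and 12.2 CPM against 4.62 and 4.19 in WT (1.71 ± 0.22, edgeR adjusted p = 0.04257). In RS it lay at 9.97, 19.7 and 9.13 CPM against 6.34, 4.11 and 3.94, which did not overlap either (1.51 ± 0.42, edgeR adjusted p = 0.1692). Both cell types and whole testis were thus alike in direction for Ndufa1, although only whole testis and SC passed. Leydig markers summed to 0.968 to 1.77 CPM in these RS libraries against 1.12 to 1.501 in WT, and to 10.7 to 12.5 in these SC libraries against 9.67 to 10.5 in WT.
The SC count moved to 42, with 13 higher and 29 lower, without replicate 1 of the libraries labelled CM, the one high in Ctcf. It moved to 0 without either of the other SC libraries labelled CM. The share of all genes called without replicate 1 is not given here, so the 42 are not read as a result about the members. The difference between RS and SC in the effect of the label CM was called for 0 of 87 members in edgeR, with 4 at an unadjusted p under 0.05 and 2 by DESeq2, where 3.51% of all genes were called; without SC replicate 1 labelled CM it was called for 2.

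Between cell types in WT, most members were lower in RS than in SC. Of 87 tested, 8 were higher in RS and 51 lower (9.2% and 58.6% of members, beside 35.8% and 34.2% of all genes), with a median log2 fold change of −0.51, beside 0.02 for all genes. By complex, the counts of higher and lower were 2 and 16 of 28 for complex I accessory subunits, 0 and 3 of 7 for its core, 0 and 3 of 4 for complex II, 0 and 6 of 8 for complex III, 3 and 8 of 16 for complex IV and 2 and 11 of 17 for ATP synthase.
Uqcrc2, a core protein of complex III, lay at 80.9, 65.7 and 71.3 CPM in RS against 247 and 249 in SC (−1.67 ± 0.10). Ndufaf3 (−1.51 ± 0.10), the accessory subunit Ndufb9 (−1.46 ± 0.10), the complex II assembly factor Sdhaf2 (−1.46 ± 0.11) and Sdhd, a membrane anchor of complex II (−1.45 ± 0.13), were lower to a like degree. The testis form Cox8c lay at 332, 208 and 211 CPM in RS against 972 and 1222 in SC (−2.04 ± 0.21), and Ndufc2 was at −2.04 ± 0.20. In each of these genes every RS library was below both SC libraries.
Few members ran the other way. Atp5l, subunit g of ATP synthase, lay at 1.90, 2.16 and 3.25 CPM in RS against 0.162 and 0.187 in SC (3.88 ± 0.40). The SC values rest on 12 and 14 counts, and its level is uncertain for the reason given above. The coupling factor gene Atp5s was at 1.14 ± 0.17. Ndufaf2 was at 0.77 ± 0.15 and Cox6b1 at 0.84 ± 0.22. The X chromosome is silenced during meiosis in spermatocytes, and X-linked Ndufb11 (2.45 ± 0.69) and Cox7b (4.06 ± 1.35) were called higher in RS, as were 527 of 566 X-linked genes (93.1%). Both genes were at low counts in SC, with Cox7b at 0 and 0.040 CPM. Ndufa1, also X-linked, was not called (0.22 ± 0.24).

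**Figure D5:**
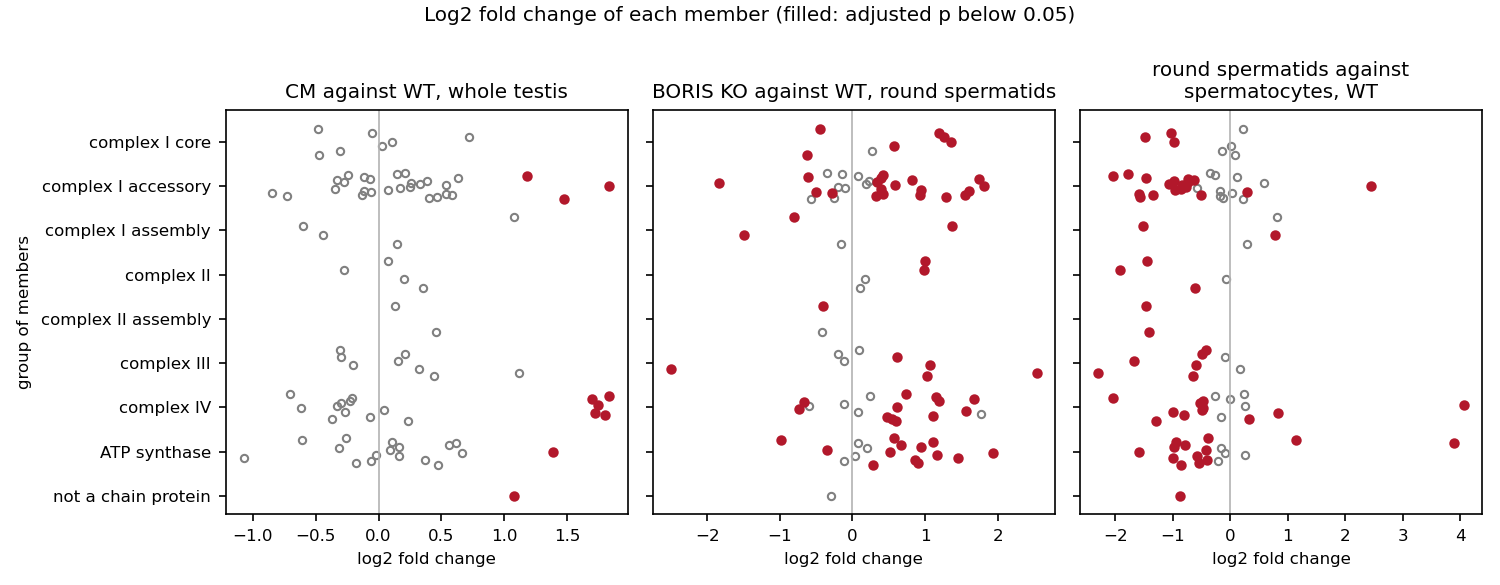
Log2 fold change of each member (points, filled where the adjusted p is below 0.05) by complex, for CM against WT in whole testis, BORIS KO against WT in round spermatids, and WT round spermatids against spermatocytes. Filled points number 10, 61 and 59; they lie to the right in CM testis, mostly to the right in BORIS KO and mostly to the left in round spermatids against spermatocytes.

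BORIS KO cells gave 14 members higher in RS and 57 lower of 88 (beside 41.7% and 41.6% of all genes), with Uqcrc2 at −1.61 ± 0.06, Ndufc2 at −1.93 ± 0.08, Atp5l at 3.65 ± 0.22 and Ndufb11 at 3.55 ± 0.27. The libraries labelled CM gave 0 higher and 20 lower of 87 (beside 16% and 11.9% of all genes), with Uqcrc2 at −1.32 ± 0.18 and Ndufc2 at −1.66 ± 0.24. For the libraries labelled CM, 9 members were called without RS replicate 3, 10 without SC replicate 1, 5 without SC replicate 2 and 8 without SC replicate 3.
Beside the members, the WT fit had 4 assembly factors higher in RS and 11 lower of 20, 2 regulators higher and 7 lower of 12, 3 electron carriers and partners higher and 3 lower of 8, and 5 tricarboxylic acid cycle enzymes higher and 5 lower of 13. In BORIS KO against WT the assembly factors counted 6 higher and 2 lower of 20 in RS and 7 and 2 of 20 in SC, and the regulators 3 and 4 of 12 and 4 and 5 of 11. The carriers and partners counted 2 higher and 3 lower of 8 in KO RS, with the testis cytochrome c Cyct at −1.60 ± 0.09 and cytochrome c1 (Cyc1), a complex III subunit outside the naming rule, at 1.76 ± 0.16.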

How the data were processed

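RNA values are unnormalised read counts for each symbol, which the authors deposited as 2 tables, one for whole testis (rRNA-depleted, Ion Proton, TopHat2 and Bowtie2, mm9) and one for round spermatids and spermatocytes (poly(A), HiSeq, STAR, mm9). The counting tool, annotation and strand are not given in the sources used here. For CTCF and BORIS the authors deposited peak heights as a signal, and for Pol2 and H3K4me3 a peak score; how replicates were combined is not given. Only peak positions were compared between lists.

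Members, gene lists and tests were chosen with earlier results of these data known. Genotypes came from sample titles. Each comparison used edgeR 4.0.16 (R 4.3.3) on the libraries of both groups, with filterByExpr, TMM scaling, a robust quasi-likelihood F test, and Benjamini-Hochberg adjustment over all genes tested. A gene was called at an adjusted p below 0.05. Contrasts of effects used all groups involved. CPM used TMM-scaled library sizes, within each table. Named genes were the isoform pairs, the called members of smallest p in each direction (up to 5 for CM against WT and for RS against SC in WT, 2 elsewhere), members with CTCF or BORIS peaks, and the highest and lowest of each complex; the remaining called members of CM testis, and further members given as examples, were added after their values were seen. Replicate numbers were taken to pair the whole testis libraries, as all 18 same-numbered pairs of deviations from group means correlated (r at least 0.183, median 0.42). Other pairs had a median of −0.358 and ran up to 0.511. Deviations cancel out within a group, so these other pairs are no independent contrast. Replicate 1 also had the most counts in each testis genotype, and the part of depth in the pairing was not tested. Replicate numbers did not pair the cell libraries.

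Alternatives were RLE scaling, DESeq2 1.42.0, testing without the low-count filter, a joint fit of the 4 genotypes, a block for replicate number, a stricter threshold and leaving out each library. GC and length terms, leaving out both libraries labelled CM with high Ctcf, and ranking levels without each WT library were added after seeing the data. On simulated counts for CM testis (16136 genes), 99.0% of genes changed 8-fold and 6.0% of those changed 2-fold were called. For BORIS KO round spermatids (15363 genes) these were 97.0% and 65.0%. Each simulation changed 200 genes, far fewer than were called in the data, in libraries drawn independently. The simulated shares are therefore not the power of the comparisons made here. Labels do not say that preparations of a group came from separate days, so p-values measure the spread between these libraries. Starts, exons and sequences were read from the mm9 genome with its GENCODE annotation, in which 21893 symbols were matched. Spermatocyte ChIP-seq was not analysed here.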

Additional observations from a re-analysis of the deposited data

Results flagged for a closer look

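In CTCF HET, 12 members were called in opposite directions in round spermatids and spermatocytes, with no overlap between HET and WT libraries in either; the difference between the cell types was itself not tested. These were 14.3% of the 84 members tested in both, beside 7.73% of all genes, and 97.7% of all genes called in both cell types were called in opposite directions. The calls rest on few libraries: in round spermatids 1 member was called without WT replicate 2 or 3 and 2 in the joint fit of the 4 genotypes, and in spermatocytes 0 without HET replicate 2. All values are log2 fold changes against WT ± SE from edgeR, with round spermatids first. Ctcf itself was at −0.44 ± 0.22 and 0.34 ± 0.22, and was called in neither. Higher in round spermatids and lower in spermatocytes were Cox8c (1.22 ± 0.21 and −1.86 ± 0.12), Cox6b2 (0.58 ± 0.14 and −1.02 ± 0.19), Ndufs6 (0.83 ± 0.21 and −1.61 ± 0.11), Ndufa8 (0.71 ± 0.19 and −1.39 ± 0.15), Ndufv1 (0.74 ± 0.22 and −1.36 ± 0.22) and Ndufaf3 (0.49 ± 0.11 and −0.59 ± 0.14). Lower in round spermatids and higher in spermatocytes were Ndufb4 (−1.27 ± 0.27 and 1.69 ± 0.39), Uqcrb (−0.84 ± 0.18 and 1.02 ± 0.17), Ndufc1 (−0.76 ± 0.18 and 0.92 ± 0.13), Ndufaf2 (−0.68 ± 0.14 and 0.60 ± 0.14), Ndufv3 (−0.50 ± 0.14 and 0.73 ± 0.15) and Ndufa6 (−0.47 ± 0.09 and 0.59 ± 0.10).

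Over all genes the HET fold change correlated with exon GC content in opposite directions in the 2 cell types (r = 0.47 in round spermatids and −0.286 in spermatocytes), and the part of this in the 12 members was not tested. Round spermatid markers summed to 1735 to 1840 CPM in HET round spermatids against 2040 to 2120 in WT, and elongating spermatid markers to 64.4 to 107 CPM in HET spermatocytes against 41.9 to 43.4; their part was not tested either.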

How the results depend on the processing

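Values are counts of called members, with the reported count in parentheses after each comparison. Shares of all genes are not printed beside them here, so a change in a count is not read as a result about the members. In whole testis the replicate block gave 21 for CM against WT (10), 21 for CM against CTCF HET (5), 4 for CM against BORIS KO (0) and 2 for BORIS KO against WT (0); with a GC term as well these were 17, 21, 4 and 5. DESeq2 gave 9 for CM against CTCF HET, 2 for CM against BORIS KO and 1 for BORIS KO against WT, and fitting all 4 genotypes together gave 18 for CM against WT, 13 for CM against CTCF HET and 1 for CM against BORIS KO. The GC term gave 8 and the GC and length terms 13 for CM against CTCF HET. In cells, DESeq2 gave 26 for HET round spermatids (17), 3 for round spermatids labelled CM (0), 19 for spermatocytes labelled CM (1) and 2 for the difference between these effects (0). All 4 genotypes together gave 2, 7 and 17 for HET round spermatids, round spermatids labelled CM and spermatocytes labelled CM, and 17 for KO spermatocytes (63). The stricter threshold (adjusted p below 0.001 and fold above 2) gave 19 for KO round spermatids (61), 5 for KO spermatocytes, 19 for round spermatids against spermatocytes in WT (59), 22 in KO (71) and 0 in the libraries labelled CM (20), and 0 for CM against WT and against CTCF HET in testis, both HET cell types and spermatocytes labelled CM. The GC and length terms gave 32 for round spermatids against spermatocytes labelled CM. Without both libraries of high Ctcf the counts were 5 for that comparison, 42 for spermatocytes labelled CM and 1 for the difference between the effects.

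Leaving out each library gave 0 to 17 for CM against WT, 0 to 10 for CM against CTCF HET and 0 to 2 for CM against BORIS KO in testis; 1 to 43 for HET and 49 to 66 for KO round spermatids; 0 to 21 for HET (22), 52 to 67 for KO and 0 to 42 for spermatocytes labelled CM; 42 to 73, 65 to 73 and 5 to 24 for round spermatids against spermatocytes in WT, KO and the libraries labelled CM; and 0 to 2 for the difference between the effects. Where only 1 WT spermatocyte library was left, it was assumed to vary as the other groups do. The causes were not tested. Replicate numbers did not pair the cell libraries, where same-numbered deviations correlated between −0.356 and 0.385 in round spermatids and between −0.44 and 0.301 in spermatocytes, and the block gave 13 for HET round spermatids and 28 for HET spermatocytes. Without division by length, log2 ratios in WT testis reversed to 1.55 for Atp5g1/Atp5g2, 0.19 for Atp5g1/Atp5g3 and −1.36 for Atp5g2/Atp5g3. Under the alternatives other than the GC, length and Ctcf ones, 357 values of named members kept their direction and side of the threshold, 48 kept the direction but no longer passed and 0 reversed.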
